A study of Mus musculus with 23 samples.

Results

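The dual-specificity MAP kinase phosphatases were followed in livers of female B6C3F1 mice given furan, a liver toxicant. The family was taken as 10 genes, Dusp1, Dusp2, Dusp4, Dusp5, Dusp6, Dusp7, Dusp8, Dusp9, Dusp10 and Dusp16, found by matching the systematic name of each array probe to a mouse gene symbol. They held 11 of the 55681 probes, 2 of them for Dusp16. Of the 10 genes, 7 were bright enough to be among the 19899 genes tested, and Dusp4, Dusp5 and Dusp10 were not.

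The 5 groups were 5 vehicle control mice, 4 mice on 1 mg furan per kg body weight, 5 mice on 2 mg/kg, 4 mice on 4 mg/kg and 5 mice on 8 mg/kg. All animals, controls included, were gavaged with corn oil for 21 days, were bought at 5 to 6 weeks of age, and had liver taken 4 hours after the last gavage. Liver RNA was labelled with Cy5 and hybridised on an Agilent 2-colour array against a universal mouse reference RNA labelled with Cy3, 1 animal per array and with the same dye orientation throughout. The series text counts 25 animals, and 23 arrays were analysed here. A value below is the log2 ratio of liver Cy5 to reference Cy3, so a value of 0 is the reference's level of that transcript, and values of different probes cannot be set against each other.

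MAP kinases carry signals from growth factors and stress to the nucleus when they are phosphorylated on a threonine and a tyrosine of the activation loop. The dual-specificity phosphatases remove both phosphates. Their genes are themselves often transcribed in answer to MAP kinase signalling, so that several of them act as feedback inhibitors. The family is commonly divided into inducible nuclear enzymes (Dusp1, Dusp2, Dusp4, Dusp5), cytoplasmic enzymes that prefer ERK (Dusp6, Dusp7, Dusp9) and enzymes that prefer the stress kinases JNK and p38 (Dusp8, Dusp10, Dusp16).

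At 8 mg/kg, 3 of the 7 genes tested were higher than in control liver and none was lower. The 3 came from the ERK-preferring and the JNK- and p38-preferring branches. Of the nuclear enzymes only Dusp1 and Dusp2 were tested, so these counts do not set the branches apart. Dusp6 was 2.8-fold higher and Dusp16 1.29-fold higher. Dusp8 was at least 3.96-fold higher by processed signals normalised between arrays. That bound did not hold under other processing, where its log2 difference was 0.82 (normexp with an offset of 50) and 0.94 (the authors' deposited ratios). For comparison, 7.99% of all genes tested changed at this dose, 4.23% upward. None of the 7 passed the test at 1, 2 or 4 mg/kg. Dusp8 entered the test only through its signal at 8 mg/kg, so its place in the count of 3 is no support for a shift of the family.

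A promoter window of each of the 3 genes that rose is shown with that of Dusp1, the member with the longest record as a stress-induced gene. Each is the 250 bases before a transcript start given by RefSeq on GRCm38.p6, on the gene's own strand. RefSeq lists several transcripts for Dusp8 and Dusp16, and for both the window shown lies inside the gene's full span, at a start downstream of the outermost one. Capitals mark the cyclic AMP response element TGACGTCA, which CREB and ATF family factors and Jun-containing dimers can bind.
Dusp6: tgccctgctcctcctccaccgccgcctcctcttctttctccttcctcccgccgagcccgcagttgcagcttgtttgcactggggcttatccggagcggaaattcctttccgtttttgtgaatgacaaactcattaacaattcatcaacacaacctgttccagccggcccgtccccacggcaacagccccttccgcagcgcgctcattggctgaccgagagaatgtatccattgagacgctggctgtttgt
Dusp8: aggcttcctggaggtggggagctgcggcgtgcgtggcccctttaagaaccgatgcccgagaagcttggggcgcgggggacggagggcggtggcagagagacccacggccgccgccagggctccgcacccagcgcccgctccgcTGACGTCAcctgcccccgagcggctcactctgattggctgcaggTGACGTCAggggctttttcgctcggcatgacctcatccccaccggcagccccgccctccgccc
Dusp16: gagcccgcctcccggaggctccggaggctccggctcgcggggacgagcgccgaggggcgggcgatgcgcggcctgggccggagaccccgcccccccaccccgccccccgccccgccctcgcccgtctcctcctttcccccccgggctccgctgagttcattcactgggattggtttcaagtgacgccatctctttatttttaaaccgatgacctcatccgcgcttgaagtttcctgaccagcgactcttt
Dusp1: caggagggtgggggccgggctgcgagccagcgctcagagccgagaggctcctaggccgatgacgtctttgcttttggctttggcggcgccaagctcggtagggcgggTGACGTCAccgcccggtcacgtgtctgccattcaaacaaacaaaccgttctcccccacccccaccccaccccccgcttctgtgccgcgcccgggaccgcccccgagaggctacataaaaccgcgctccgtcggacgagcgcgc
The Dusp6 window lies at chr10:99262981-99263230 on the plus strand and the Dusp1 window at chr17:26508473-26508722 on the minus strand. The Dusp8 window lies at chr7:142095285-142095534 and the Dusp16 window at chr6:134792629-134792878, both on the minus strand.

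The Dusp8 window held the response element at 2 places, from -107 to -100 and from -63 to -56 relative to the start. The Dusp1 window held it once, from -143 to -136. The element was present in 1.55% of the 32851 RefSeq mouse promoter windows of this length, and 10 of them (0.0304%) held it at 2 or more places. The Dusp6 and Dusp16 windows held no exact copy, nor did those of Dusp2, Dusp5, Dusp7 and Dusp10. The table had no window for Dusp4 or Dusp9.

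The other motifs sought, on both strands, were the AP-1 site TGANTCA, the GC box GGGCGG, the ETS site CCGGAAGT, the E box CACGTG and the serum response CArG box. They stood in 6.75%, 32.7%, 2.88%, 6.02% and 1.47% of all windows. Neither the AP-1 site nor the ETS site was found in any of the 8 family windows. GC boxes numbered 5 in Dusp16, of which the pair nearest the start shared a base, 3 each in Dusp1, Dusp2 and Dusp8, 2 in Dusp10 and 1 in Dusp5. Dusp5 held 2 adjoining CArG boxes, and Dusp1 and Dusp2 an E box each. None of these overlapped a cyclic AMP response element. In base composition 7 of the 8 family windows stood at 59.6% to 77.2% G and C and Dusp6 at 56.4%, against a median of 52.4% over all windows. Such matches describe letters in a short window and do not show that a factor binds there.

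How far each gene could be measured set what could be said of it. Dusp1, Dusp6, Dusp7, Dusp9 and the brighter Dusp16 probe had a Cy5 signal well above background on all 23 arrays. Dusp2 did on 22 of 23, missing 1 of the 4 arrays at 4 mg/kg. Dusp10 did on 12 arrays, namely 3 of 5 controls, 2 of 4 at 1 mg/kg, 3 of 5 at 2 mg/kg, 1 of 4 at 4 mg/kg and 3 of 5 at 8 mg/kg. Dusp4 passed on 7 arrays, 1 in each of the control, 1, 2 and 4 mg/kg groups and 3 of 5 at 8 mg/kg. Dusp5, the nuclear phosphatase specific for ERK, was well above background on 1 array, at 4 mg/kg. Dusp8 was above background on none of the 5 control arrays, none of the 4 arrays at 1 mg/kg, 1 of 5 at 2 mg/kg, 1 of 4 at 4 mg/kg and all 5 at 8 mg/kg. The second Dusp16 probe was above background on 3 of 5 control arrays, 3 of 4 at 1 mg/kg, 5 of 5 at 2 mg/kg, 3 of 4 at 4 mg/kg and 5 of 5 at 8 mg/kg.

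**Figure D1:**
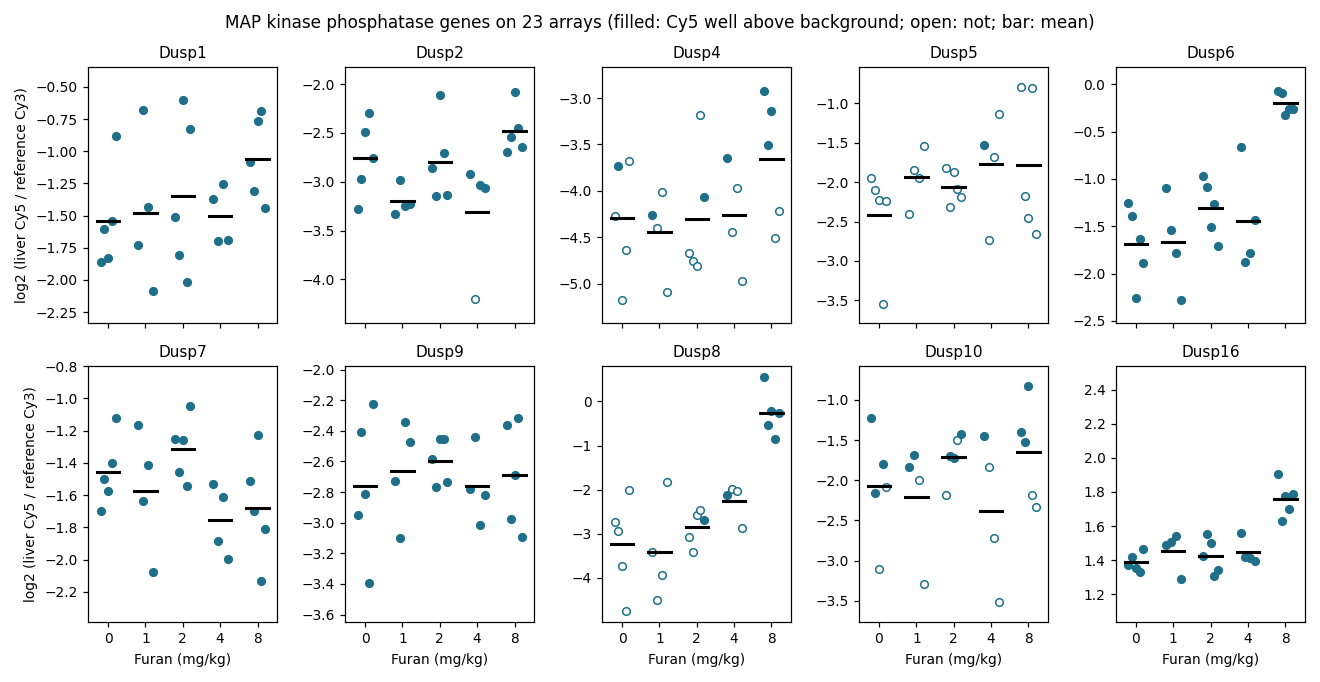
Log2 ratio of liver Cy5 to reference Cy3 for each of the 10 family genes (vertical axes, 1 scale per gene) against furan dose in mg/kg (0 is the vehicle control), 1 point per array and a bar at the group mean. Filled points are arrays with Cy5 well above background and open points are not. Dusp6, Dusp8 and Dusp16 at 8 mg/kg lie above every control array.

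Across the arrays, 22011 to 30120 probes were well above background in Cy5 and no Cy5 spot was saturated. Transcripts of exocrine pancreas were high on 4 arrays, with mean log2 differences from control over 4 measured marker genes of 3.08 and 3.09 for 2 mg/kg replicates 1 and 5, 3.23 for 4 mg/kg replicate 1 and 2.38 for 8 mg/kg replicate 5. Neutrophil markers reached 3.62 on 2 mg/kg replicate 4. Scores of 8 hepatocyte markers, all well above background on every array, ran from -0.35 to 0.71 at 8 mg/kg and from -0.35 to 0.61 in controls. Scores of 7 measured Kupffer cell and macrophage markers ran from -0.22 to 0.30 at 8 mg/kg and from -0.48 to 0.78 in controls, and those of 6 endothelial markers from -0.69 to 0.30 and from -0.18 to 0.36. In whole liver a difference in RNA per cell and a difference in the number of cells of a type cannot be told apart.

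Among the nuclear enzymes, Dusp1 is the immediate early phosphatase that acts mainly on p38 and JNK. Its log2 ratios at 8 mg/kg were -1.08, -1.31, -0.77, -0.69 and -1.45, against -1.86, -1.61, -1.83, -1.54 and -0.88 in control livers. The ranges overlapped because 1 control array lay as high as the treated ones. The difference was 0.49 ± 0.28 (log2, SE), with a 95% interval from -0.09 to 1.06 and a limma adjusted p of 0.339. It was above 0 in each of the 4 slides that held both groups, from 0.10 to 1.14. At 1, 2 and 4 mg/kg Dusp1 differed from control by 0.06, 0.20 and 0.04. Its spread within a dose was wide, with values from -2.09 to -0.68 at 1 mg/kg and from -2.02 to -0.60 at 2 mg/kg.

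Dusp2, best known from lymphocytes and other leukocytes, had log2 ratios of -2.69, -2.54, -2.08, -2.45 and -2.65 at 8 mg/kg, against -3.28, -2.97, -2.49, -2.29 and -2.76 in controls. The groups overlapped, and the difference of 0.28 ± 0.24 did not pass (limma adjusted p = 0.571). At 4 mg/kg its values were -2.92, -4.20, -3.03 and -3.07, and the lowest of these came from the array on which it was not well above background. That group averaged -0.55 ± 0.25 relative to control, with an unadjusted p of 0.0398 and a limma adjusted p of 0.534. The direct comparison of 8 with 4 mg/kg gave 0.82 ± 0.25 for Dusp2 (limma adjusted p = 0.26). Scores over 6 measured T and NK cell markers ran from -0.42 to 0.21 at 8 mg/kg and from -0.29 to 0.20 in controls.

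Dusp4, a nuclear phosphatase of ERK, JNK and p38, had log2 ratios from -4.50 to -2.92 at 8 mg/kg and from -5.18 to -3.67 in controls, most of them from spots not well above background. In a fit without the brightness filter it differed by 0.64 ± 0.38 (limma adjusted p = 0.556). Dusp5 ran from -2.66 to -0.79 at 8 mg/kg and from -3.54 to -1.95 in controls, and differed by 0.64 ± 0.38 in that fit (limma adjusted p = 0.558), with no array of either group well above background. The intervals of both, -0.15 to 1.43 and -0.15 to 1.42, include 0 and also a 2-fold rise.

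Dusp6 is the cytoplasmic phosphatase of ERK and a feedback inhibitor whose transcript follows ERK activity in many tissues. Its log2 ratios at 8 mg/kg were -0.07, -0.09, -0.32, -0.26 and -0.26, against -1.25, -1.39, -2.26, -1.64 and -1.89 in control livers. The treated values lay close together and all above every control, a pattern that 4.44% of all genes tested showed upward at this dose. The difference was 1.49 ± 0.23 (limma adjusted p = 0.000496). At 1 mg/kg the values were -1.10, -1.54, -1.78 and -2.28, at 2 mg/kg -0.96, -1.09, -1.51, -1.26 and -1.71, and at 4 mg/kg -0.67, -1.88, -1.78 and -1.44. All 3 of these groups overlapped the controls. Their mean differences from control were 0.02 ± 0.25, 0.38 ± 0.23 and 0.25 ± 0.25, none of which passed the test.

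The group means of Dusp6 stood at -1.69 ± 0.40 in controls (SD, n = 5), -1.67 ± 0.49 at 1 mg/kg (n = 4), -1.31 ± 0.30 at 2 mg/kg (n = 5), -1.44 ± 0.55 at 4 mg/kg (n = 4) and -0.20 ± 0.11 at 8 mg/kg (n = 5). The ranges of the 4 groups up to 4 mg/kg overlapped one another. The step between the highest doses was tested directly. Dusp6 at 8 mg/kg was 1.24 ± 0.25 above 4 mg/kg, or 2.36-fold (limma adjusted p = 0.04), in a comparison in which 0.206% of all genes changed. That call was lost in 2 of 13 other settings and on leaving out any 1 of 12 of the 23 arrays, with adjusted p values up to 0.158, while the difference remained between 1.08 and 1.51. The arrays concerned were replicates 2 and 3 at 1 mg/kg, replicates 2 and 3 at 2 mg/kg, replicates 2, 3 and 4 at 4 mg/kg and all 5 replicates at 8 mg/kg.

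Within slides, Dusp6 at 8 mg/kg exceeded control by 1.38, 1.07, 2.00 and 1.50 on the 4 slides that held both groups. On the 4 slides with both higher doses it exceeded 4 mg/kg by 0.41 to 1.78. The array with the highest Dusp6 value at 4 mg/kg, replicate 1, was also the one with the pancreas score of 3.23. Without the 4 arrays rich in pancreatic transcripts the differences were 1.50 from control and 1.51 from 4 mg/kg, as large as with them.

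The other ERK-preferring members did not pass the test. Dusp7, a cytoplasmic ERK phosphatase closely related to Dusp6, ran from -2.14 to -1.23 at 8 mg/kg and from -1.70 to -1.12 in controls, a difference of -0.22 ± 0.17 (limma adjusted p = 0.534). Its 95% interval, -0.57 to 0.14, leaves out a rise of the size of that of Dusp6. Dusp9, an X-linked member with a preference for ERK, ran from -3.10 to -2.32 at 8 mg/kg and from -3.40 to -2.23 in controls. It differed by 0.07 ± 0.20 with an interval from -0.34 to 0.49 (limma adjusted p = 0.9). At 1, 2 and 4 mg/kg the differences from control were -0.11, 0.15 and -0.30 for Dusp7 and 0.10, 0.16 and 0.00 for Dusp9, none past the test.

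Dusp8, a phosphatase of JNK and p38 known mainly from brain and heart, moved from dim to clearly measured spots. Its processed Cy5 signals at 8 mg/kg were 523, 222, 286, 166 and 261, against 39.5, 44.6, 21, 12.3 and 81.6 on the control arrays. These signals are not normalised between arrays, but the lowest treated signal was above the highest control one. As log2 ratios the 8 mg/kg values were 0.56, -0.52, -0.21, -0.85 and -0.27, against -2.74, -2.94, -3.74, -4.75 and -2.01 in controls. The groups did not overlap, as in 4.44% of genes upward.

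Because no control spot of Dusp8 was well above background, its control level is only a ceiling. For a bound, Cy5 levels were taken after loess and normalisation between arrays. Each control array was set at the higher of its own level and the lowest well-above-background level on it. In that processing Dusp8 was at least 3.96-fold higher at 8 mg/kg. The fitted difference of its log2 ratios was 2.98 ± 0.46 (limma adjusted p = 0.000413). Values near background also depend on how background is treated. With normexp background correction, run with an offset of 50, the difference was 0.82, and in the authors' deposited ratios 0.94. The limma adjusted p values were 0.00442 and 0.000781. The direction and the call held while the size fell below the bound just given. Dusp8 entered the test only through its signal at 8 mg/kg, so these calls are no separate support. An offset added to both channels shrinks the log2 ratios of dim spots, and its share in the fall was not tested.

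At the lower doses Dusp8 was near background. Its log2 ratios were -3.42, -4.50, -3.92 and -1.82 in the 1 mg/kg group, -3.06, -3.41, -2.57, -2.45 and -2.69 on 2 mg/kg and -2.12, -2.00, -2.03 and -2.87 in mice given 4 mg/kg. Of the values at 4 mg/kg, 3 of 4 lay within the range of the controls, and their mean was 0.98 ± 0.49 above that of controls (unadjusted p = 0.0564, limma adjusted p = 0.581). The difference between 8 and 4 mg/kg was 1.99 ± 0.49 and missed the threshold (limma adjusted p = 0.118), as it did in all 13 other settings and in 22 of 23 fits without 1 array. Within slides, 8 mg/kg exceeded control by 2.73 to 4.48 and 4 mg/kg by 1.47 to 2.59. Without the pancreas-rich arrays the difference from control was 2.98.

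Dusp16, which prefers JNK and shuttles between cytoplasm and nucleus, showed the smallest of the 3 differences and the narrowest spread. Its brighter probe gave log2 ratios of 1.90, 1.63, 1.77, 1.70 and 1.79 at 8 mg/kg, against 1.37, 1.42, 1.36, 1.33 and 1.46 in control livers. All 5 treated values were above all 5 controls. The difference was 0.37 ± 0.07, or 1.29-fold (limma adjusted p = 0.0021), and 0.34 to 0.49 within slides. The group means were 1.39 ± 0.05 in controls (SD, n = 5), 1.46 ± 0.11 at 1 mg/kg (n = 4), 1.43 ± 0.10 at 2 mg/kg (n = 5), 1.45 ± 0.08 at 4 mg/kg (n = 4) and 1.76 ± 0.10 at 8 mg/kg (n = 5). The ranges of the 4 groups up to 4 mg/kg overlapped, and none of the 3 treated ones among them passed against control.

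The second Dusp16 probe was dimmer and noisier. It gave 1.47, 0.82, 1.27, 0.96 and 1.73 at 8 mg/kg, against 0.98, 1.16, 0.96, 0.39 and 0.95 in controls, with overlap. Its difference of 0.36 ± 0.27 had the same size as that of the brighter probe but did not pass (limma adjusted p = 0.51), and the mean of both probes did not pass either (0.37, limma adjusted p = 0.155). Between 8 and 4 mg/kg the brighter probe differed by 0.31 ± 0.07 (limma adjusted p = 0.0959), and a fit blocked on slide brought the adjusted p to 0.0488. Without the pancreas-rich arrays the difference from control was 0.36.

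Dusp10, a phosphatase of JNK and p38 present in many tissues, ran from -2.33 to -0.83 at 8 mg/kg and from -3.10 to -1.22 in controls. Without the brightness filter it differed by 0.42 ± 0.40 (limma adjusted p = 0.791). Its interval, -0.42 to 1.26, is too wide to place it with either the genes that rose or those that did not.

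**Figure D2:**
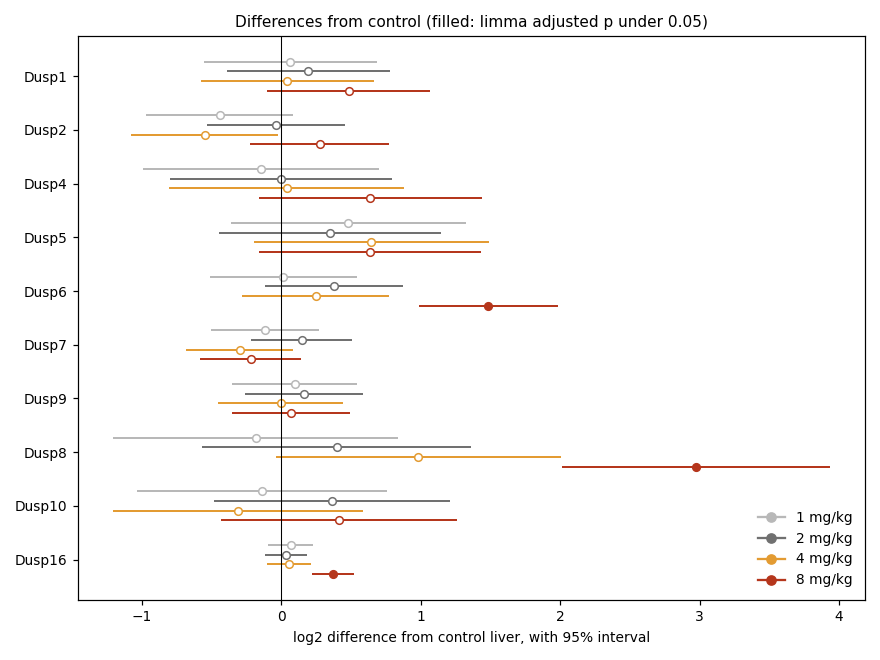
Log2 difference from control liver with its 95% interval (horizontal axis) for each family gene at 1, 2, 4 and 8 mg/kg furan. Filled points had a limma adjusted p under 0.05; Dusp4, Dusp5 and Dusp10 come from the fit without the brightness filter. Filled points are seen for Dusp6 (1.49), Dusp8 (2.98) and Dusp16 (0.37) at 8 mg/kg.

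The slope fitted over the dose series was 0.18 ± 0.03 per mg/kg for Dusp6 (limma adjusted p = 0.000148). For Dusp16 it was 0.04 ± 0.01 (limma adjusted p = 0.000911), in a test that called 10.4% of all genes. Neither gene passed against control below 8 mg/kg, so these slopes do not show a graded rise. Whether the relation to dose was a straight line was not tested. No slope is given for Dusp8, since below 8 mg/kg most of its spots were at background. The comparisons with control share the control arrays, and limma called 0 of the 7 genes at 1, 2 and 4 mg/kg in the reported fit and in each of the 13 other settings. At an unadjusted p under 0.05 there were 0 at 1 and 2 mg/kg and 1 at 4 mg/kg, Dusp2. Over all genes, 1 mg/kg changed 0%, 2 mg/kg 0.0101% and 4 mg/kg 0.0804%. Of the 19899 genes tested, 700, 1725 and 1772 had an unadjusted p under 0.05 at these doses. The median difference of the 7 tested members was 0.37 at 8 mg/kg and 0.04 at 4 mg/kg, beside -0.03 and -0.02 over all genes tested. Dusp8, which entered only through its signal at 8 mg/kg, is among the 7. The median at that dose is therefore no support for a shift of the family.

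Across the 23 arrays the log2 ratios of Dusp6 and Dusp16 had a Pearson r of 0.82, Dusp8 and Dusp16 0.70 and Dusp6 and Dusp8 0.67. Much of that is the step at 8 mg/kg, which all 3 share. Over the 18 arrays of the other groups the values were 0.47, -0.15 and -0.05, and there Dusp8 is mostly at background. Among the genes tested, those whose ratios followed Dusp6 most closely over the 23 arrays were Lzic (r = 0.852), Uspl1 (0.852) and the tubulin gene Tubb2a (0.851). For Dusp16 they were Gdf9, a growth factor known from the oocyte (0.879), the stress-induced transcription factor gene Atf3 (0.861) and Moap1 (0.853). For Dusp8 they were the TWEAK receptor gene Tnfrsf12a (0.923), the cell cycle inhibitor gene Cdkn1a (0.887) and Trmt61a, a subunit of a tRNA methyltransferase (0.877). These genes were picked by their r over all 23 arrays, of which the 18 without 8 mg/kg are part. Their r within the 18 is therefore no independent check. Within those 18 arrays the r of Dusp6 was 0.541 with Lzic, 0.666 with Uspl1 and 0.585 with Tubb2a. That of Dusp16 there was 0.503 with Gdf9, 0.314 with Atf3 and 0.864 with Moap1. For Dusp8, most of whose spots on those arrays were at background, it was 0.749 with Tnfrsf12a, 0.602 with Cdkn1a and 0.622 with Trmt61a.

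The rest of the pathway was read through 8 lists of upstream and downstream genes, 94 of whose 121 members were tested. At 8 mg/kg limma called 9 of the 94 higher and 2 lower, beside 4.23% and 3.76% of all genes. It called 0 at 1, 2 and 4 mg/kg, where 3, 8 and 8 had an unadjusted p under 0.05. Of the 19899 genes tested, 700, 1725 and 1772 did so at these doses. The split over all genes, 842 higher and 748 lower at 8 mg/kg, moved to 1131 and 406 without loess and to 700 and 310 with normexp.

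Of 17 immediate early transcription factor genes, 5 rose, 0 fell and 12 did not pass, beside 4.23% of all genes upward. The list median was 0.19, beside -0.03 over all genes tested. Jun, the core subunit of AP-1, averaged -1.79 at 8 mg/kg and -4.03 in controls, a rise of 2.24 ± 0.18 (limma adjusted p = 4.42e-07). Atf3 rose by 1.98 ± 0.19 (2.5e-06), Fosl2, a Fos relative in AP-1, by 0.98 ± 0.16 (0.00052), Myc by 1.44 ± 0.40 (0.0303) and Jund by 0.46 ± 0.12 (0.0216). Jun and Atf3 were also higher at 8 than at 4 mg/kg, by 1.57 and 1.31 (limma adjusted p = 0.001 and 0.00497). Dusp6 passed at this step too.

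ERK feedback genes, the class to which Dusp6 belongs, mostly did not pass, as was so of all genes tested, of which 7.99% changed. Of 12 measured Sprouty, Spred, Etv and related genes, 1 rose and 11 did not pass, with a median of 0.07. That count is near the share over all genes and sets the list apart from them in neither direction. The 1 was Spred1, an inhibitor of the ERK pathway, at 0.60 ± 0.15 (limma adjusted p = 0.0164).

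Of 12 genes of the JNK cascade, 1 rose and 11 did not pass, beside 4.23% of all genes upward. The 1 was Map2k7, a kinase that activates JNK, which rose by 0.85 ± 0.19 (limma adjusted p = 0.00733). Map2k7 averaged 0.62 in controls, 1.19 on 1 mg/kg, 1.00 on 2 mg/kg, 1.51 on 4 mg/kg and 1.48 on 8 mg/kg. Each treated mean was above the highest control, 0.75, but 2 mg/kg replicate 5, at 0.48, lay within the control range. At 1, 2 and 4 mg/kg it did not pass (limma adjusted p = 0.999, 0.585 and 0.0962). Of 11 genes of the p38 cascade, 2 fell, beside 3.76% of all genes, and the list median was -0.06. Map2k6, which activates p38, fell by 0.73 ± 0.17 (limma adjusted p = 0.00891). Mapk12, a p38 isoform, fell by 0.31 ± 0.09 (0.0493), a call that was lost in 6 of 13 other settings, among them the fit without the pancreas-rich arrays. With 1 array left out it passed in 6 of 23 fits, those without control replicate 3, 2 mg/kg replicates 1, 3, 4 or 5, or 8 mg/kg replicate 1, and the limma adjusted p reached 0.135.

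Of 11 growth factor ligands, 2 rose and 9 did not pass, beside 4.23% of all genes upward, with a median of 0.08. Fgf21, a hormone that liver secretes under metabolic stress, rose by 2.00 ± 0.44 (limma adjusted p = 0.00704) and the platelet-derived growth factor chain Pdgfa by 1.01 ± 0.12 (1.94e-05). Limma called 0 of 15 growth factor receptors, 0 of 9 atypical dual-specificity phosphatases and 0 of 7 other phosphatases that act on MAP kinases. Of these, 2, 0 and 2 had an unadjusted p under 0.05, beside 4170 of the 19899 genes tested. With 7.99% of all genes changed, 0 calls in lists this short do not set these lists apart. Their medians were -0.04, 0.03 and -0.04.

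**Figure D3:**
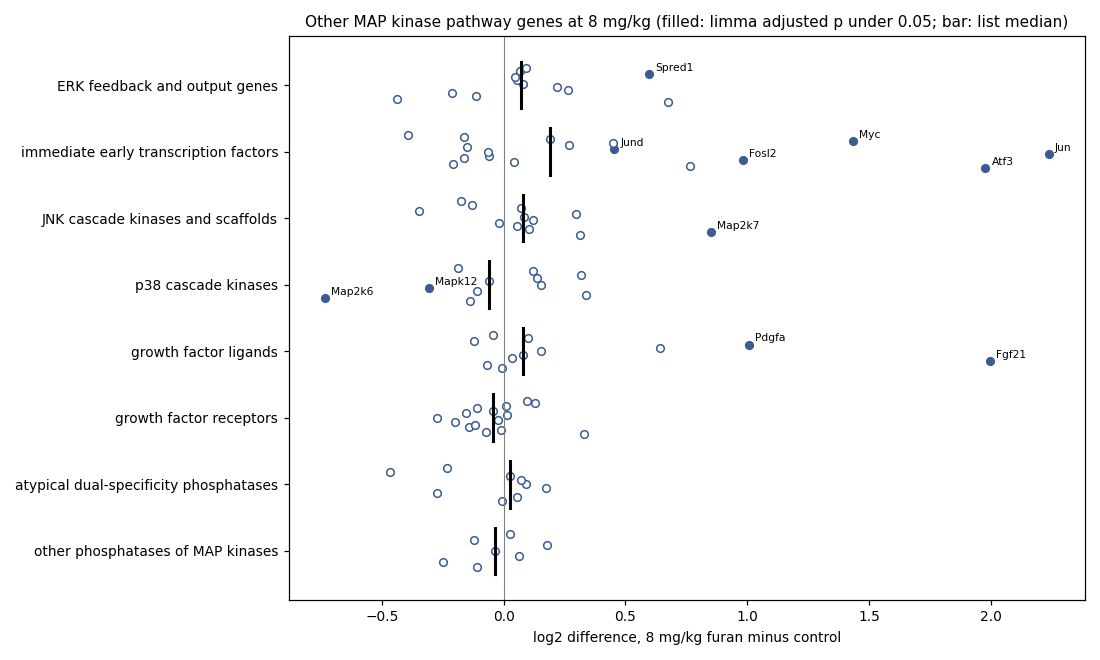
Log2 difference between 8 mg/kg furan and control liver (horizontal axis) for each tested gene of 8 MAP kinase pathway lists (rows). Filled points had a limma adjusted p under 0.05 and carry their names, open points did not, and a bar marks each list's median. Jun (2.24), Fgf21 (2.00) and Atf3 (1.98) lie farthest to the right and Map2k6 (-0.73) farthest to the left.

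The calls at 8 mg/kg mostly held over the ways the arrays were processed, but the size of the Dusp8 difference did not. Dusp6 passed in all 13 other settings at 1.33 to 1.54, Dusp8 in all 13 at 0.82 to 3.16, and Dusp16 in 12 of 13 at 0.36 to 0.48. All 3 also passed on leaving out each of the 23 arrays in turn. Dusp6 then lay between 1.34 and 1.60, Dusp8 between 2.60 and 3.28 and Dusp16 between 0.34 and 0.40. Dusp8 entered the test only through its signal at 8 mg/kg, so its repeated passing is no separate support. Several settings leave the differences of Dusp6, Dusp8 and Dusp16 as reported and so do not test their size. These are Aquantile scaling, other brightness filters, the replicate block, the other variance model, only the groups compared, and dropping the neutrophil-rich array. Leaving out an array from a group other than control or 8 mg/kg also cannot move the differences. The passing of such fits shows only that the error estimate or the adjustment did not undo the calls.

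**Figure D4:**
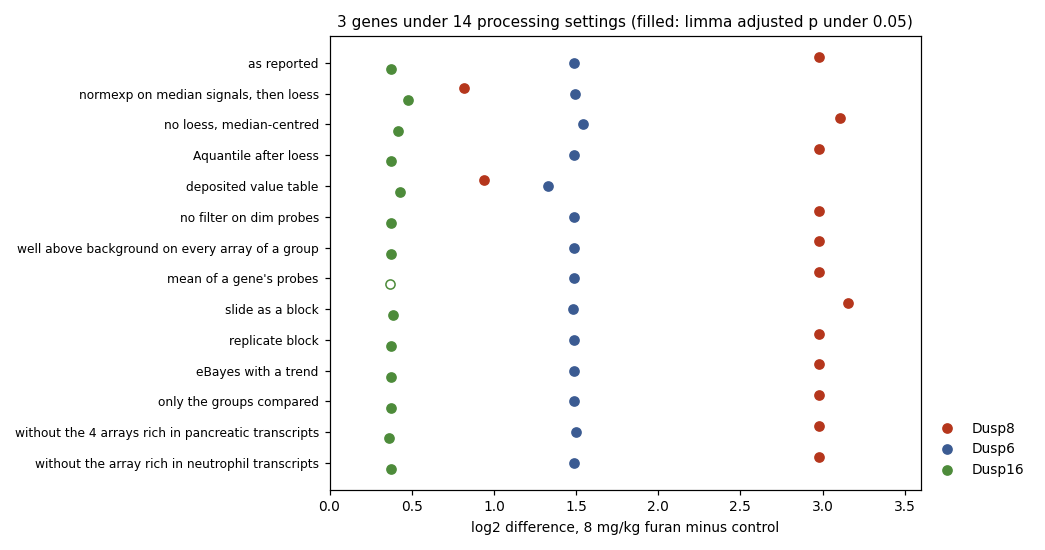
Log2 difference between 8 mg/kg furan and control liver (horizontal axis) for Dusp8, Dusp6 and Dusp16 under the reported processing and 13 other settings (rows). Filled points had a limma adjusted p under 0.05. Dusp6 stays between 1.33 and 1.54, Dusp8 drops to 0.82 with normexp and 0.94 in the deposited ratios, and Dusp16 is open only for the mean of its probes.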

How the data were processed

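Per the labels, liver RNA (Cy5) and universal reference RNA (Cy3) were hybridised without dye swap. Per the file headers, the authors extracted each array with Agilent Feature Extraction 10.7.3.1, whose processed signal is an intensity already background-subtracted and dye-normalised. The deposited value table holds a linear Cy5 to Cy3 ratio per probe, used only as an alternative. The other deposited scanner values used are 0 or 1 marks per spot.

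Log2 ratios of processed signals were loess-normalised within each array (span 0.3, 4 iterations; control and marked spots at weight 0). Of 55681 probes, 26413 matched 20018 symbols of a RefSeq table (GRCm38.p6, names only; the array design names mm9). A systematic name without a matching symbol was kept and counted as a gene of its own. The counts and shares over all genes therefore include such entries. The brightest probe of a gene stood for it, and was kept if 4 or more arrays of some group had the mark for Cy5 well above background. The comparisons used limma 3.58.1 (R 4.3.3) on all 23 arrays with group as the only term (18 residual degrees of freedom), two-sided, with Benjamini-Hochberg adjustment over 19899 genes and a threshold of 0.05. The code was tested on simulated data. The number of arrays limits the precision.

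Named genes are all members, the pathway list genes past the threshold at 8 or 4 mg/kg, and the 3 genes most correlated with each member called. A further pathway list is not reported here. Members and lists were chosen with earlier results of these data known. Alternatives covered background correction (normexp on median signals with an offset of 50), normalisation, filter, probe rule, slide, replicate number, variance model and arrays left out.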

Additional observations from a re-analysis of the deposited data

Results flagged for a closer look

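Among 55 probe and group combinations of the family, 5 held 1 array set apart from the rest of its group by Dixon's criterion, which chance alone meets in about 1 in 20. Dusp16 at its brighter probe read 1.56 on 4 mg/kg replicate 1, above 1.42 for the nearest array, and that array also had the pancreas score of 3.23. The second Dusp16 probe read 0.39 on control replicate 4, against 0.95 for the nearest control. Dusp2 read -4.20 on 4 mg/kg replicate 2, against -3.07 for the nearest. Dusp8 read -2.87 on 4 mg/kg replicate 4, against -2.12 for the nearest. Dusp5 read -3.54 on control replicate 4, against -2.24 for the nearest control. These last 3 arrays were not well above background for the gene concerned.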

How the results depend on the processing

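None of the results changed direction where it was called. Counts over all genes were 2 at 2 mg/kg, then 16 at 4 mg/kg, then 1590 at 8 mg/kg (842 higher, 748 lower), 41 for 8 against 4 mg/kg (34 higher) and 2069 for the slope (1059 higher). The count at 2 mg/kg was 0 under each setting named in this paragraph, Aquantile scaling excepted. With normexp about 1.0e+03 genes changed at 8 mg/kg (700 higher, 310 lower), 37 for 8 against 4 mg/kg (35 higher) and 1348 with dose (879 higher). The deposited table gave 932 at 8 mg/kg (580 higher, 352 lower), 16 at 4 mg/kg (12 higher), 26 for 8 against 4 mg/kg and 1298 with dose (804 higher). Without loess 54 changed at 4 mg/kg (48 higher, beside 10 of 16), while 1537 changed at 8 mg/kg (1131 higher), 29 for 8 against 4 mg/kg (27 higher) and 1945 with dose (1419 higher). Without the filter 37163 genes were tested, with 7 at 4 mg/kg, 930 at 8 mg/kg, 16 for 8 against 4 mg/kg and 0 phosphatases in that comparison. With slide as a block the counts were 64 at 4 mg/kg, 68 for 8 against 4 mg/kg and 2 phosphatases. With only the groups compared they were 4 at 4 mg/kg, 1039 at 8 mg/kg, 2 for 8 against 4 mg/kg and 0 phosphatases. Without the 4 pancreas-rich arrays they were 5 at 4 mg/kg and 21 for 8 against 4 mg/kg. Aquantile scaling leaves ratios as they are, so it changed no value. The causes of these shifts were not tested, beyond the fewer arrays or the larger number of genes that a setting implies.

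Leaving out 1 array gave 0 to 0 genes for 1 mg/kg, 0 to 7 for 2 mg/kg, 6 to 23 for 4 mg/kg, 1155 to 1785 for 8 mg/kg, 15 to 55 for 8 against 4 mg/kg and 1563 to 2399 for the slope. Phosphatases called numbered 3 to 3 at 8 mg/kg and 0 to 2 for 8 against 4 mg/kg. Of the other genes named at 8 mg/kg, Spred1, Jund, Myc and Mapk12 passed in 12, 11, 10 and 7 of 13 other settings and in 21, 20, 18 and 6 of 23 fits without 1 array. Spred1 was lost without control or 8 mg/kg replicate 3, Jund without 8 mg/kg replicates 1 or 2 or control replicate 1, and Myc without 8 mg/kg replicates 1 or 3 or control replicates 1, 2 or 3, with adjusted p values up to 0.0513, 0.0604 and 0.089. The labels do not say whether replicate numbers pair the animals, and the numbers were treated as names. Deviations from group means of 43 pairs of arrays sharing a number had a median correlation of 0.03, and 14 were over 0.1. For 168 pairs not sharing a number the median was -0.04, and 34 were over 0.1. Whether the 2 sets of pairs differ was not tested. With the replicate block there were 0 genes at 2 mg/kg, 10 at 4 mg/kg and 25 for 8 against 4 mg/kg, and 3 phosphatases at 8 mg/kg as without it. Signal over background limits Dusp4, Dusp5 and Dusp8, whose levels in controls are mostly bounds, and Dusp10, dim on some arrays of every group.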
